A study of Mus musculus with 6 samples.

Results

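The glucocorticoid receptor gene Nr3c1, the enzyme gene Hsd11b1 and 8 genes that glucocorticoids induce were followed in the pancreas of newborn mice with and without miR-216a. The set was named gene by gene, with earlier results of these libraries known, and was chosen on the contrast of genotypes and on the spread between knockout libraries. Its differences between genotypes are therefore given as a description, with no test. It holds 10 of the 35527 genes quantified, and all 10 were among the 15805 genes with enough reads to be tested.

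Each library came from the whole pancreas of 1 mouse of strain C57BL/6 at 1 day after birth. The WT group (wild type) holds 3 libraries and the KO group (labelled KO and described as miR216a-/-) holds 3. The labels do not say how the allele was made, nor litter or sex. Depth ran from 20565387 to 23028718 estimated reads. Levels are TMM-scaled CPM, and errors are SDs over 3 libraries.

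Glucocorticoids are steroid hormones of the adrenal cortex that surge around birth and under stress. Inside the cell they bind the receptor NR3C1, which leaves its chaperones, enters the nucleus and binds response elements made of a pair of inverted half-sites. Fkbp5, Tsc22d3, Klf9, Zbtb16 and Per1 are genes that the bound receptor induces in many tissues. In the fetal and newborn pancreas the hormone is known to favour exocrine over beta cell differentiation.

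Library KO 3 stood apart from the other 5 over all genes. On the first principal component of all tested genes it lay at 34.8, with KO 2 at 15.4, KO 1 at -1.204 and the WT libraries between -18.0 and -14.5. KO 2 stood apart on the second component, at 28.6 against -17.9 to 13.5 elsewhere, and its mitochondrially encoded genes summed to 28349 CPM against 19859 to 23456 CPM. Summed markers of cycling cells stood at 248 CPM in KO 3, 403 CPM in KO 2 and 661 CPM in KO 1, against 862 to 1079 CPM in WT. Y-linked genes summed to 3.82 CPM in KO 1 and, in each of the other 5, to 147 to 194 CPM. Among them, Ddx3y stood at 0.141 and Eif2s3y at 0 CPM in KO 1, against 61.8 to 102 and 43.3 to 60.6 CPM elsewhere. Kdm5d and Uty stood at 2.83 and 0.848 CPM in KO 1, against 27.1 to 36.6 and 12.6 to 20.3 CPM elsewhere. Xist, which is expressed in females, was not among the genes quantified, so only the 4 Y-linked genes could be read. By these values KO 1 came from a female and the other 5 libraries from males, so the KO group mixes sexes. Results without KO 1 are also without the only female, and the part of sex in them was not tested. Of the tissue's own markers, acinar genes summed to 98897 to 142131 CPM over the 6 libraries. Endocrine genes summed to 6687 to 8568 CPM in WT and to 6177, 6425 and 5851 CPM in KO 1 to 3. Each KO sum was below every WT sum, and the list was not uniform. Ins1, Ins2 and Sst lay below every WT library in each KO library. In KO 2, Gcg (1840 CPM), Chga (762 CPM), Pax6 (72.0 CPM) and Neurod1 (33.7 CPM) instead lay above every WT library. The part of these differences in the values of the receptor set was not tested. In whole tissue, fewer cells of a type and less RNA per cell cannot be told apart.

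The receptor gene varied little between libraries while most of its induced genes were high in 1 or 2 of the KO libraries. Nr3c1 stood within 0.933 to 1.16 times the WT mean in each KO library. In KO 3, Zbtb16 stood at 29.4 times the WT mean, Fam107a at 11.5, Hif3a at 6.18, Fkbp5 at 4.38 and Klf9 at 4.28 times. KO 3 was the highest of the 6 libraries for 8 of the 10 genes, where it was highest for 24.2% of all tested genes. For the same number, 8, the KO libraries ran in the order KO 3, KO 2, KO 1, an order found for 18.1% of all tested genes. Since the set was chosen on these values, nothing is read from these counts.

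**Figure D1:**
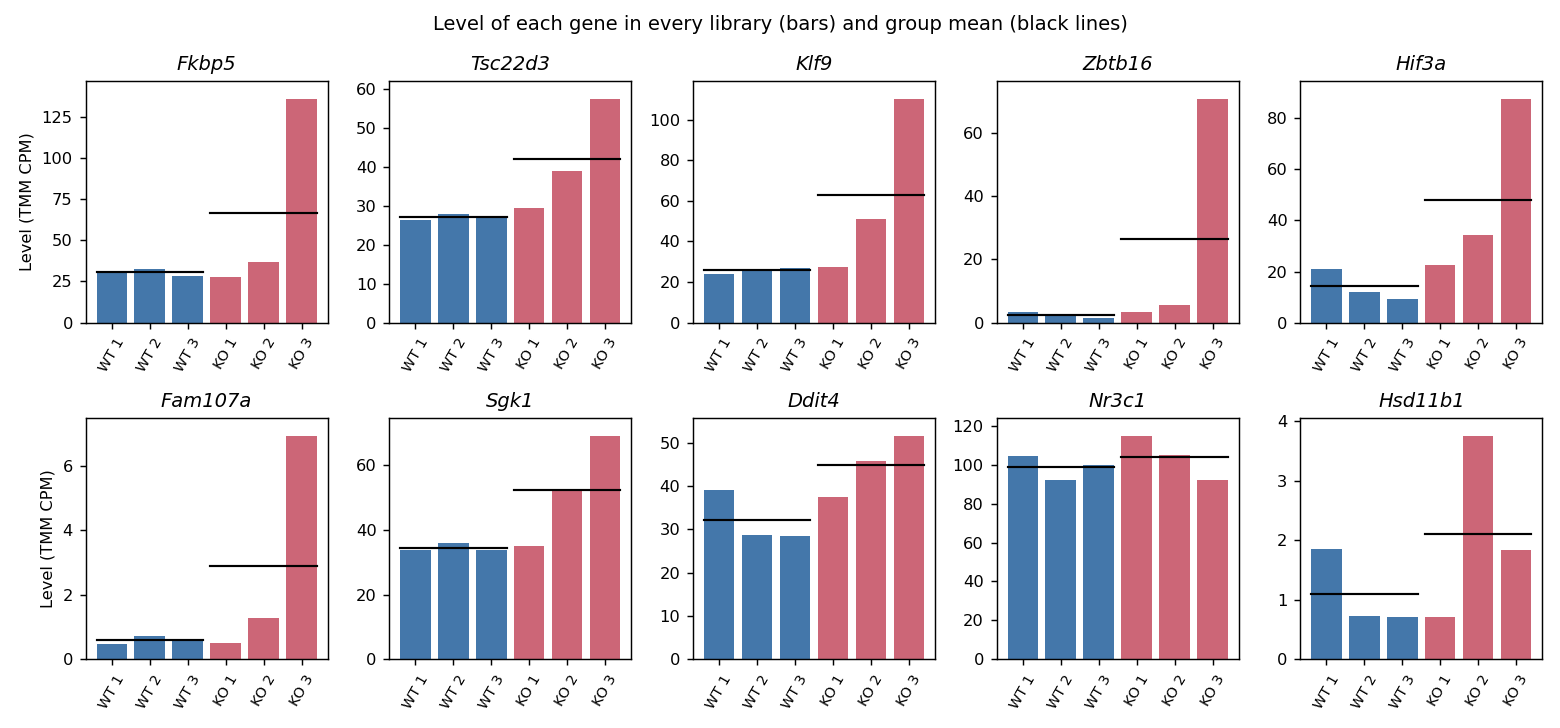
Level (TMM CPM, linear axes from 0, a separate scale per gene) of the 10 genes in each of the 3 WT and 3 KO libraries, with group means as black lines. KO 3 has the tallest bar for 8 genes; Nr3c1 is level across the libraries, and Hsd11b1 is highest in KO 2.

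Nr3c1 encodes the glucocorticoid receptor and lies on chromosome 18 from 39410545 to 39519421 (GRCm38, minus strand). It stood at 104, 92.0 and 99.8 CPM in WT 1 to 3 and at 115, 105 and 92.1 CPM in KO 1 to 3. The groups overlapped. Means were 98.7 ± 6.23 CPM (WT) and 104 ± 11.4 CPM (KO), a log2 difference of 0.07 ± 0.10 SE. Without KO 1 that difference was -0.0048.

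Hsd11b1 encodes the reductase that regenerates active corticosterone inside cells. It stood at 1.85, 0.721 and 0.712 CPM in WT and at 0.707, 3.76 and 1.84 CPM in KO 1 to 3. KO 2 and WT 1 were the high libraries, and the groups overlapped. The gene rested on 15 to 74 reads per library, so its order between libraries is imprecise. Summed erythroid markers were also highest in WT 1 (5940 CPM) and KO 2 (4787 CPM), against 1705 to 2836 CPM elsewhere. Markers of the liver, which expresses Hsd11b1, were high in WT 1, with Alb at 219 CPM against 6.41 to 15.1 CPM elsewhere and Afp at 127 CPM against 0.305 to 4.05 CPM. The part of either marker list in the Hsd11b1 values was not tested.

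Fkbp5 encodes a co-chaperone that lowers the receptor's affinity for hormone and is itself a receptor target, so that it feeds back on the response. It lies on chromosome 17 from 28399094 to 28517527 (minus strand). Its level was 31.6, 32.9 and 28.5 CPM in WT and 27.7, 37.1 and 136 CPM in KO 1 to 3. KO 1 lay below every WT library, KO 2 just above, and KO 3 far above. KO exceeded WT by a log2 fold change of 1.11 ± 0.53 SE over all libraries and 0.06 without KO 3, so the group difference of this gene rests on that library.

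Zbtb16 encodes a zinc finger transcription factor, also called PLZF, that is nearly silent in many tissues without hormone. It lies on chromosome 9 from 48654297 to 48836222 (minus strand). It stood at 3.41, 2.32 and 1.47 CPM in WT and 3.49, 5.54 and 70.6 CPM in KO 1 to 3. All 3 KO libraries exceeded the WT libraries, but KO 1 did so by a margin smaller than the WT SD of 0.972 CPM. The log2 fold change of 3.47 ± 1.11 SE became 0.91 without KO 3.

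Klf9, a Krüppel-like repressor of proliferation, lies on chromosome 19 from 23141226 to 23168134 (plus strand). It stood at 24.1, 26.2 and 27.0 CPM in WT and 27.6, 51.1 and 110 CPM in KO 1 to 3. The groups did not overlap, with KO 1 beside the WT libraries, KO 2 at 1.98 times and KO 3 at 4.28 times the WT mean. The log2 fold change was 1.29 ± 0.42 SE, and 0.61 without KO 3.

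Tsc22d3 encodes GILZ, a leucine zipper protein through which glucocorticoids dampen inflammation, and lies on chromosome X from 140539528 to 140600659 (minus strand). Its WT libraries were close together, at 26.4, 27.9 and 26.9 CPM. KO 1 to 3 stood at 29.5, 38.8 and 57.4 CPM, each above every WT library. Its log2 fold change was 0.63 ± 0.22 SE, and 0.34 without KO 3.

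Hif3a encodes a hypoxia-inducible factor subunit of which some forms oppose the activating subunits. It lies on chromosome 7 from 17031507 to 17062427 (minus strand). It stood at 21.2, 12.1 and 9.26 CPM in WT and 22.4, 34.5 and 87.5 CPM in KO 1 to 3. The WT libraries differed by a factor of 2.29, and KO 1 lay only just above WT 1. For this gene the log2 fold change was 1.77 ± 0.51 SE, and 1.00 without KO 3.

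Sgk1 encodes a kinase that promotes sodium and nutrient transport, and Ddit4 an inhibitor of MTOR signalling that hypoxia and other stress induce too. Sgk1 stood at 34.0, 35.9 and 33.8 CPM in WT and 35.2, 52.5 and 69.2 CPM in KO 1 to 3. Ddit4 stood at 39.2, 28.8 and 28.4 CPM in WT and 37.4, 45.8 and 51.7 CPM in KO. For both, KO 1 lay within the WT range and KO 2 and KO 3 above it. Their log2 fold changes were 0.60 ± 0.21 and 0.49 ± 0.16 SE, and 0.34 and 0.37 without KO 3.

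Fam107a encodes an actin-associated protein that stress hormones induce in the brain. It was scarce, at 0.474, 0.721 and 0.617 CPM in WT and 0.518, 1.27 and 6.93 CPM in KO 1 to 3. These values come from 10.2 to 18.1 reads per WT library and from 10.7, 25.1 and 162 reads in KO 1 to 3. KO 1 lay within the WT range. The log2 fold change of 2.26 ± 0.87 SE became 0.55 without KO 3.

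**Figure D2:**
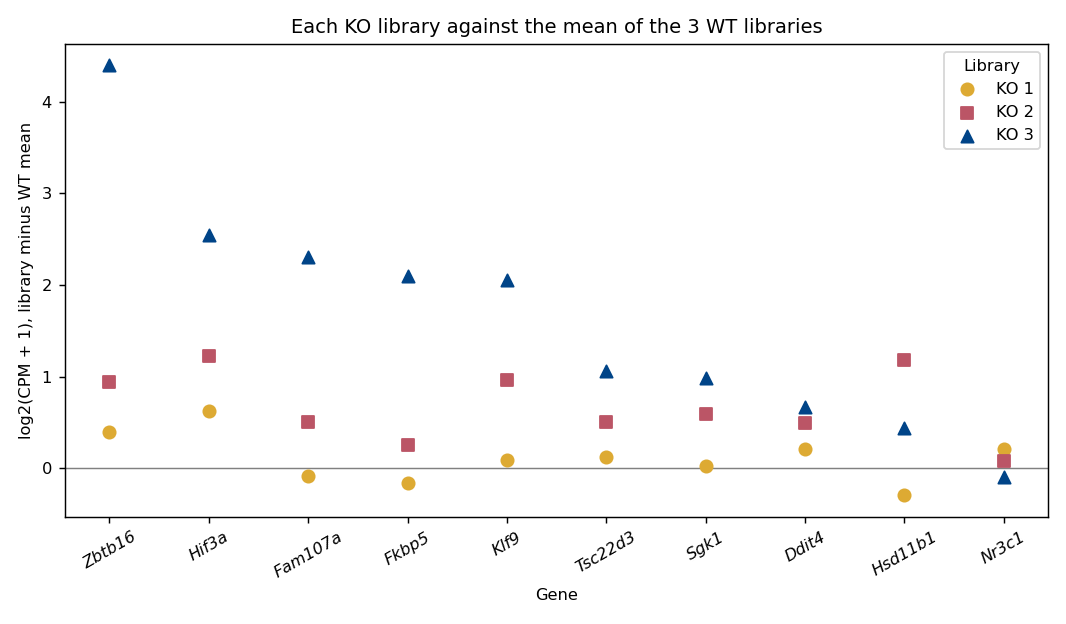
Difference of each KO library from the mean of the 3 WT libraries, on the log2(CPM + 1) scale, for the 10 genes. KO 3 (triangles) is highest for 8 genes, from 0.67 for Ddit4 to 4.40 for Zbtb16; KO 1 (circles) lies between -0.29 and 0.62.

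On that log2(CPM + 1) scale, which understates the change of scarce genes, the 10 genes had a median of 0.11 (KO 1), 0.55 (KO 2) and 1.56 (KO 3). Over all tested genes the same medians were -0.0051, -0.0010 and -0.0022. KO 2 lay above every WT library for 10 genes, against 30.8% of all tested genes, but for Nr3c1 the margin was 104.7 against 104.3 CPM. KO 1 exceeded the WT libraries for 5 (28.8% of all tested genes), lay within their range for 3 (41.6%) and below it for 2 (29.6%), Fkbp5 and Hsd11b1. KO 3 reached at least 2 times the WT mean for 7 genes, against 1.97% of all tested genes. Sgk1 lay just inside that bound at 2.003 times, and Hsd11b1 and Ddit4 outside it at 1.68 and 1.61 times.

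Groups did not overlap, with KO above WT, for 4 of the 10 genes (Tsc22d3, Klf9, Zbtb16 and Hif3a), against 9.07% of all tested genes, and 0 genes lay wholly below WT, against 10.3%. Without KO 3 the count was 5 of 10, with a background of 15.6%. By the levels above, the gene added is the receptor gene Nr3c1, at 115 and 104.7 CPM in KO 1 and KO 2 against 104.3 CPM in WT 1. Without KO 1 it was 8 of 10, with a background of 15.5%. The median log2 fold change of the set was 1.03, against 0.0069 for all tested genes. It was 0.46 without KO 3 and 1.42 without KO 1.

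Levels were compared between genes as TPM, which accounts for transcript length. In WT, Ddit4 (24.9 ± 5.64 TPM) and Nr3c1 (23.8 ± 1.11 TPM) were the most abundant, followed by Tsc22d3 (20.0 ± 2.22 TPM), Sgk1 (19.7 ± 2.41 TPM) and Fkbp5 (12.2 ± 2.17 TPM). Ddit4 and Nr3c1 did not differ beyond their SDs, nor did Tsc22d3 and Sgk1. Klf9 followed at 8.40 ± 0.842 TPM and Hif3a at 4.37 ± 2.93 TPM. Hsd11b1 (1.05 ± 0.679 TPM), Zbtb16 (0.622 ± 0.289 TPM) and Fam107a (0.240 ± 0.0657 TPM) were scarce. KO 3 had another order, in which Fkbp5 led at 59.2 TPM, Nr3c1 was the seventh at 22.6 TPM, and Zbtb16 reached 19.4 TPM.

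Single transcripts were examined because several of these genes have more than 1 promoter. Of 15 transcripts that held at least 10% of their gene's reads, 0 differed in share between genotypes (exact two-sided permutation test, smallest adjusted p = 0.808). With 3 against 3 libraries that test cannot go below an unadjusted p of 0.1, so it could not have called any. Tsc22d3-202, a noncoding transcript, was the 1 share that reached that exact p of 0.1. It held 49.8, 34.2 and 49.6% of the gene's reads in WT and 32.4, 21.2 and 24.9% in KO 1 to 3. The coding transcript Tsc22d3-201 held 36.6, 52.4 and 33.1% in WT and 51.1, 61.7 and 56.2% in KO. In KO 3, Tsc22d3-201 stood at 2.92 and Tsc22d3-203 at 2.59 times the WT mean level, and Tsc22d3-202 at 1.19 times.

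Nr3c1 was mostly made of a pair of coding transcripts. Nr3c1-204 held 76.5, 77.1 and 78.2% of the gene's reads in WT and 83.6, 75.3 and 66.4% in KO 1 to 3, while Nr3c1-203 held 20.997, 20.1 and 18.4% in WT and 14.2, 22.3 and 31.7% in KO. The WT libraries were alike, and KO 1 and KO 3 lay on opposite sides of them (exact permutation p = 0.7 for both transcripts). Over the 6 libraries together, 1 transcript held 88.9% of the reads of Fkbp5, 95.5% of Hif3a, 99.8% of Klf9 and 90.8% of Zbtb16. The shares of Fam107a and Hsd11b1 ran from 0 to 100% between libraries, as few reads were divided there.

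**Figure D3:**
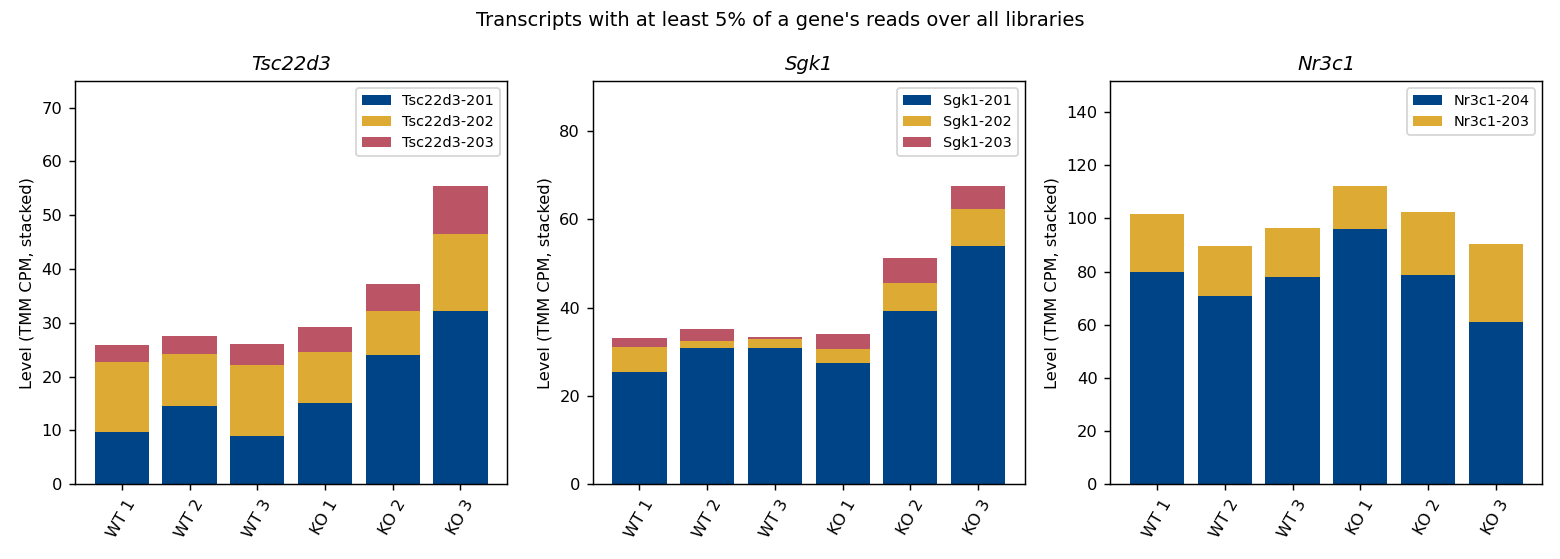
Level (TMM CPM, stacked, linear axes from 0) of the transcripts of Tsc22d3, Sgk1 and Nr3c1 with at least 5% of the gene's reads, in each library. The tall Tsc22d3 bar of KO 3 is mainly Tsc22d3-201 (32.3 CPM, against 8.89 to 14.6 CPM in WT); for Nr3c1 the total is level and Nr3c1-203 has its highest level, 29.2 CPM, in KO 3.

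The promoters of the set were searched for the core of the glucocorticoid response element, because the genes were high in the same libraries. The core was taken as GNACA, then 3 bases of any kind, then TGTNC, which reads the same on both strands. Windows ran from 250 bases before to 50 bases after each RefSeq start (build GRCm38.p6), and 8 of the 10 genes had 17 windows between them. The core stood in 3 windows of 2 genes, Sgk1 and Fam107a. Of all 27025 genes with a window, 145 had a core (0.537%), and of all windows 0.475% did. Sgk1 has 6 windows and so more sequence searched than most genes, and the 3 windows include a pair of Fam107a that overlap in all but 2 bases of 300. Among the 25 other glucocorticoid-induced genes with a window, 2 had a core. A match is a description of the letters and shows no binding.

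The window of Sgk1 with the core is at the start of transcript Sgk1-202, on the plus strand at chr10:21993640-21993939, and the main start, that of Sgk1-201, at chr10:21994416-21994715. The window of Fam107a is on the minus strand at chr14:8309730-8310029, where the transcripts Fam107a-201 and Fam107a-203 start. They are shown 5′ to 3′ in lower case with the half-sites of the core in capitals, and the core begins at position -188 from the start in Sgk1 and at -118 in Fam107a.

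Sgk1-202 start: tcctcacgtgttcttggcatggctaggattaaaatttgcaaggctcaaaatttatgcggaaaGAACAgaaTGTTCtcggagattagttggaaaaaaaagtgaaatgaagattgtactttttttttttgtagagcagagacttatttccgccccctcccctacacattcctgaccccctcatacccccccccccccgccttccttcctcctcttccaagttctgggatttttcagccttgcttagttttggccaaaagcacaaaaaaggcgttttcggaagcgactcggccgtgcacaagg
Sgk1-201 start: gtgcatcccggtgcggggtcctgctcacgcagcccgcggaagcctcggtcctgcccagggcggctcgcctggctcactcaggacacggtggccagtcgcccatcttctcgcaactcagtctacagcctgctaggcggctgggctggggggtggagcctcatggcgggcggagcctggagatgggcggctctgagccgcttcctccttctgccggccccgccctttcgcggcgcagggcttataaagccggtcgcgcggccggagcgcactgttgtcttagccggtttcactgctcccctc
Fam107a start: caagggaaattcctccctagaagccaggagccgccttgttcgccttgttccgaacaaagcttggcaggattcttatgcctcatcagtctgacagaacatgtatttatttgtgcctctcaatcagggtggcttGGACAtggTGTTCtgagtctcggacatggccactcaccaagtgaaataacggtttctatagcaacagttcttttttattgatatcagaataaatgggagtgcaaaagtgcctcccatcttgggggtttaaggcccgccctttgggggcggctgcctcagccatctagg

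Both half-sites of the Sgk1 core are exact copies of GAACA and its inverse, and the Fam107a core has GGACA in place of GAACA. Sgk1-201, whose window holds no core, carried 79.9% of the gene's reads. Its level was 25.4, 30.9 and 30.9 CPM in WT and 27.4, 39.2 and 53.9 CPM in KO 1 to 3. Sgk1-202 stood at 5.61, 1.39 and 2.03 CPM in WT and 3.16, 6.29 and 8.54 CPM in KO. In KO 3 these were 1.85 and 2.84 times the WT mean, but WT 1 of Sgk1-202 lay close to KO 2. The windows of Fkbp5, Klf9, Hif3a, Tsc22d3, Ddit4 and Hsd11b1 held no match to the core. None of the Tsc22d3 windows was placed within 50 bases of the start of Tsc22d3-201, which held 50.6% of that gene's reads. For Ddit4 and Hsd11b1, no transcript start was found within 50 bases of the RefSeq start. Zbtb16 and Nr3c1 had no window, so their promoters were not searched.

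The mature miR-216a-5p that the KO mice lack is shown because its seed (bases 2 to 8, in capitals) sets which 3′ UTRs it can pair with. It lies on chromosome 11 from 28757018 to 28757039, and the sequence is that of RefSeq.

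miR-216a-5p: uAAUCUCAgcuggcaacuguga

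A site for this seed was found in the longest annotated 3′ UTR of 3 of the 10 genes, against 18.1% of tested genes. Klf9 and Nr3c1 had a match to the whole seed (7mer-m8) and Zbtb16 a match to its first part followed by A (7mer-A1). The median length of these UTRs was 2184 bases in the set and 1370 bases in tested genes, and a longer UTR holds more sites by length alone. The other 7 genes, among them Fkbp5, Hif3a and Fam107a, had 0 sites. The Klf9 and Zbtb16 sites are shown with their flanks, the site in capitals.

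Klf9 site: acattaactttTGAGATTtaaaaaaaaca
Zbtb16 site: ccctagatctgGAGATTAgcaccgacttc

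Of the genes with a site, Nr3c1 stood at 1.16, 1.06 and 0.933 times the WT mean in KO 1 to 3. Klf9 stood at 1.07, 1.98 and 4.28 times and Zbtb16 at 1.45, 2.31 and 29.4 times it. The part of the sites in these values was not tested.

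Other genes of the pathway were taken from lists by role. In the comparison of KO with WT, edgeR's quasi-likelihood test called 0 of 15805 genes (0%) at an adjusted p of 0.05, and so 0 genes of every list. Without adjustment 5.62% of all genes had p under 0.05 and were higher in KO, and 7.0% were lower. DESeq2 called 0.835% higher and 1.92% lower, and limma-voom called 2 genes in all.

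Of 30 further glucocorticoid-induced genes, 27 were tested, and 22 of these had a higher mean in KO. Without adjustment 11 had p under 0.05, all higher, and for 8 the KO libraries were all above the WT libraries, with 0 below, where the shares of all tested genes were 9.07% and 10.3%. Leaving out 1 library moved the 11 to 6 (without WT 2), 7 (without WT 3 or without KO 3) or 17 (without KO 1). Over all genes, p counts higher in KO were, in that order, 536 of 16040, 528 of 16106, 924 of 16062 and 1066 of 16091. The 8 wholly above WT became 13 of 28 without WT 1, against 2579 of all 16091 genes. They became 16 of 29 without KO 1 (15.5% of all genes) and 10 of 27 without KO 3 (15.6%). Without WT 3 they were 10 of 29, against 2053 of all 16106 genes. The list's median log2 fold change was 0.43, and 0.30 without KO 3. DESeq2 called 5 higher, which were Irs2, Fbxo32, Dusp1, Pdk4 and Glul, and 0 lower. Irs2, an insulin receptor substrate, had means of 23.5 ± 2.60 CPM (WT) and 33.7 ± 3.03 CPM (KO, n = 3, edgeR adjusted p = 0.206). Fbxo32, a ubiquitin ligase of muscle wasting, stood at 14.7 ± 1.12 against 10.05 ± 1.17 CPM (edgeR adjusted p = 0.217). Dusp1, a MAP kinase phosphatase, stood at 15.5 ± 1.25 against 10.1 ± 1.74 CPM (edgeR adjusted p = 0.221).

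In these 3 genes KO 1, KO 2 and KO 3 all lay above WT and close to each other. Irs2 stood at 30.2, 35.2 and 35.7 CPM in KO 1 to 3 and Dusp1 at 14.0, 16.1 and 16.3 CPM. Per1, a clock gene and receptor target picked with its values in view, was high in KO 3 as Fkbp5 was. It stood at 26.2, 39.1 and 32.8 CPM in WT and 26.3, 57.1 and 126 CPM in KO 1 to 3. Mt1, a metallothionein picked in the same way, stood at 51.1, 93.5 and 223 CPM in WT and 171, 408 and 445 CPM in KO, with a wide spread within WT. Medians of the list on the log2(CPM + 1) scale were 0.08 in KO 1, 0.41 in KO 2 and 0.49 in KO 3. KO 3 reached 2 times the WT mean for 7 of the 27 genes, against the 1.97% given above.

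**Figure D4:**
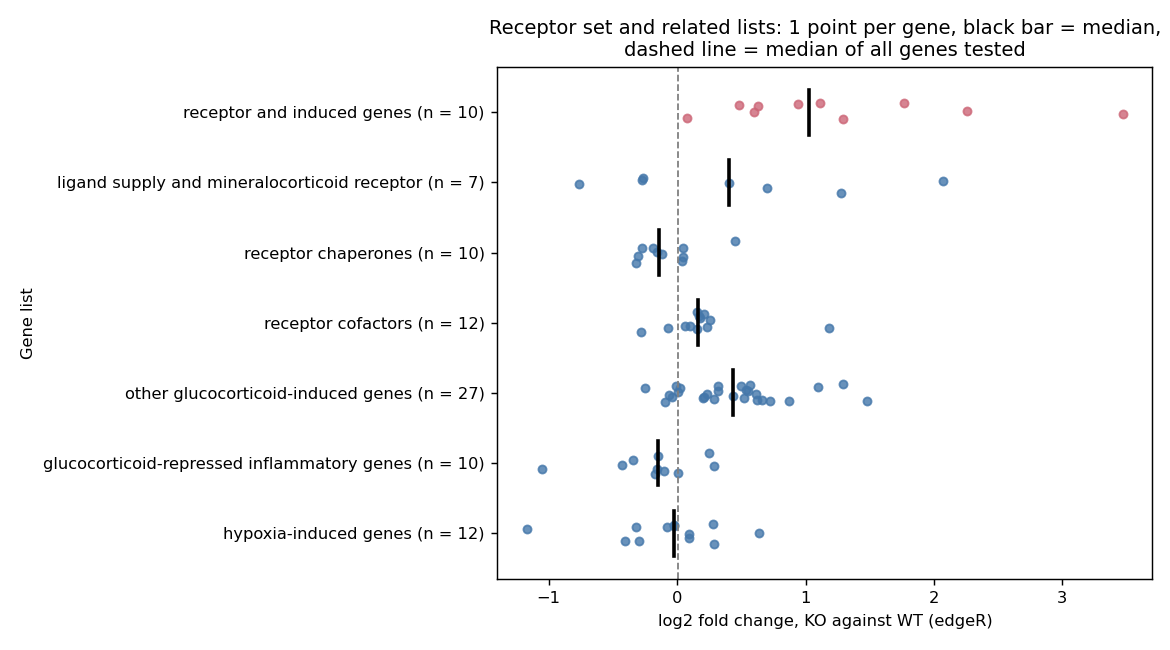
Log2 fold change of KO against WT (edgeR) for the 10 genes of the receptor set and for the tested genes of 6 lists, 1 point per gene, with the list's median as a black bar and the median of all tested genes as a dashed line. The set's median is 1.03 and that of the further induced genes 0.43; the chaperone, inflammatory and hypoxia lists have medians between -0.15 and -0.02.

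Genes that supply, bind or export the ligand differed in direction. Of 7, 3 lay wholly above WT and 2 wholly below, against 9.07% and 10.3% of all tested genes. Their median log2 fold change was 0.40, but 0.05 without KO 3 and 0.07 over the genes of at least 1 CPM in 3 libraries. Serpina6, the corticosteroid-binding globulin, was scarce, at 0.237, 0.321 and 0.285 CPM in WT and 0.565, 1.27 and 1.75 CPM in KO 1 to 3 (edgeR adjusted p = 0.206). Markers of the liver, the main source of that globulin, summed to 587 CPM in WT 1 and to 153 to 206 CPM elsewhere. Elsewhere most of that sum was Ttr, at 129 to 195 CPM. In WT 1 Ttr stood at 145 CPM, while Alb stood at 219 CPM there and at 6.41 to 15.1 CPM elsewhere. The part of the liver markers in the Serpina6 values was not tested. Abcb1a, a P-glycoprotein gene that exports steroids, had means of 5.24 ± 0.545 CPM (WT) and 8.52 ± 1.199 CPM (KO, n = 3, edgeR adjusted p = 0.217), and DESeq2 called it higher. Reads that it shares with its close copy Abcb1b may be divided imprecisely. Srd5a1, a reductase that inactivates steroids, stood at 3.88 ± 1.06 against 6.58 ± 0.202 CPM (n = 3, edgeR adjusted p = 0.255). H6pd, which supplies cofactor to the HSD11B1 enzyme, stood at 81.4 ± 15.5 against 61.7 ± 3.43 CPM and was chosen after its values were seen.

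Of 10 receptor chaperones, 6 had a lower mean in KO, with 0 called and a median log2 fold change of -0.14, or -0.08 without WT 3. Of these 10, 4 lay wholly below WT and 1 wholly above, against 10.3% and 9.07% of all tested genes. Stip1, the cochaperone HOP, had means of 55.4 ± 3.62 CPM (WT) and 44.3 ± 5.68 CPM (KO, n = 3, edgeR adjusted p = 0.315), and Hsp90aa1 of 286 ± 15.0 and 232 ± 31.9 CPM (edgeR adjusted p = 0.336). Hspa1a, which shares reads with a near-identical copy and is uncertain, stood at 4.53 ± 0.753 against 3.32 ± 0.120 CPM (edgeR adjusted p = 0.417). Receptor cofactors had a median of 0.16, with 10 of 12 higher in mean. Of these 12, 5 lay wholly above WT and 1 wholly below, beside the same shares of all tested genes. Ppargc1a, a coactivator of mitochondrial and fasting genes, stood at 4.97 ± 0.777 against 2.19 ± 0.455 CPM (edgeR adjusted p = 0.205), and DESeq2 called it higher. Smarca4, a chromatin remodeller, stood at 95.4 ± 6.01 against 116 ± 4.71 CPM (edgeR adjusted p = 0.258), and the acetyltransferase gene Ep300 at 78.6 ± 0.820 against 67.9 ± 5.80 CPM (edgeR adjusted p = 0.387).

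Inflammatory genes that the receptor represses were mostly scarce, and 10 of 14 were tested. Their median log2 fold change was -0.15, but 0.10 without KO 3 and 0.12 without WT 1, so its sign rests on single libraries. Nos2, inducible nitric oxide synthase, had means of 2.19 ± 0.439 CPM (WT) and 1.05 ± 0.344 CPM (KO, n = 3, edgeR adjusted p = 0.268) and was the 1 of the 10 whose KO libraries all lay below WT, a share near the 10.3% of all tested genes. Icam1, an adhesion molecule, stood at 12.7 ± 1.14 against 14.1 ± 2.004 CPM (edgeR adjusted p = 0.719), and the chemokine Cxcl10 at 1.06 ± 0.748 against 1.43 ± 0.184 CPM (edgeR adjusted p = 0.767).

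Hypoxia-induced genes were examined because hypoxia also induces Ddit4 and Hif3a. Of 12, 5 were higher and 7 lower in mean, with a median log2 fold change of -0.02, which was 0.10 without KO 1 and -0.07 without KO 3. Car9, a carbonic anhydrase and a classical hypoxia marker, stood at 6.49, 8.22 and 11.3 CPM in WT and 4.805, 2.90 and 3.85 CPM in KO 1 to 3 (edgeR adjusted p = 0.206). Ldha, lactate dehydrogenase, stood at 105 ± 10.5 against 140 ± 13.1 CPM (edgeR adjusted p = 0.234), and the mitophagy gene Bnip3 at 28.2 ± 7.28 against 18.1 ± 1.48 CPM (edgeR adjusted p = 0.249). DESeq2 called Car9 and Ldha lower and Bnip3 higher.

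The 5 genes outside the set whose profile was most like that of Fkbp5 were sought among 14566 genes with a mean of at least 1 CPM. Likeness was the root mean square difference of centred log2(CPM + 1) values over the 6 libraries. Arg2, mitochondrial arginase, was closest (0.084), at 0.522 to 0.758 CPM in WT and 0.471, 0.915 and 5.30 CPM in KO 1 to 3. Map3k6, a MAP kinase kinase kinase gene, followed (0.139), at 4.60 to 6.41 CPM in WT and 5.51, 6.61 and 22.2 CPM in KO. Abcb1b (0.197) stood at 19.5 CPM in KO 3 and at 2.75 to 4.45 CPM elsewhere. Rtn4rl2, a Nogo receptor homologue (0.202), stood at 6.46 CPM in KO 3 and at 1.00 to 1.42 CPM elsewhere. The potassium channel gene Kcnk9 (0.263) stood at 112 CPM in KO 3 and 15.4 to 31.2 CPM elsewhere. Within the set, Fam107a (0.132) and Klf9 (0.282) were the closest. Nr3c1 (0.855) and Zbtb16 (0.853) were the farthest and nearly equal, although Zbtb16, like Fkbp5, was highest in KO 3. The KO 3 value sets most of this likeness.

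Markers of neighbouring tissues were read beside these genes. Of 8 adrenal cortex markers, Cyp11b2 was at 0 in every library, and Cyp11b1 and Cyp21a1 reached at most 0.0471 and 0.285 CPM. The 8 summed to 6.46 to 9.52 CPM in WT and 7.77 to 9.45 CPM in KO. Cyp11a1 was the largest of them in each library, with 6.54 CPM in KO 3, 3.91 CPM in KO 2 and 6.49 CPM in WT 1. Mc2r was scarce, at 0.426, 0.521 and 0.237 CPM in WT and 0.707, 1.88 and 1.07 CPM in KO 1 to 3. It was the only marker of the 8 with every KO above every WT library, against 9.07% of all tested genes. Fat cell markers summed to 0.475 to 0.900 CPM in WT and 0.559 to 0.855 CPM in KO, with Lep and Cfd at 0. Skeletal muscle markers summed to 2.04 to 5.85 CPM in WT and 1.67 to 2.08 CPM in KO. Lymphocyte markers summed to 6.59, 13.8 and 5.64 CPM in KO 1 to 3, against 5.93 to 15.2 CPM in WT. Macrophage markers summed to 414, 365 and 350 CPM in KO 1 to 3, against 375 to 423 CPM in WT. Endothelial markers summed to 565, 580 and 581 CPM in KO 1 to 3, each above the 473 to 562 CPM of WT. For KO 1 the margin was 564.9 against 561.9 CPM in WT 1. Pecam1 and Emcn lay above every WT library in each KO library. Cdh5 in KO 2 (114 CPM) and Tek in KO 3 (32.9 CPM) lay below every WT library. Mesenchyme markers summed to 9088, 5895 and 9557 CPM in KO 1 to 3, against 9236 to 11283 CPM in WT. In KO 2, Col1a1, Col1a2, Col3a1, Dcn and Acta2 lay below every WT library. Pdgfra and Pdgfrb lay above every WT library in each KO library, at 131 and 73.0 CPM in KO 2 and 136 and 79.0 CPM in KO 3. The part of the endothelial, mesenchyme, macrophage and cycling cell differences in the values of the receptor set was not tested.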

How the data were processed

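Whole pancreas RNA of 3 WT and 3 KO mice was profiled with a stranded mRNA kit, per the labels. Groups follow the genotype label, and replicate numbers follow accession order and pair nothing. Reads were processed with bcl2fastq, Salmon 0.13.1 and DESeq2 1.24.0 on mm10, per the submitters' processing notes. The authors deposited, for each library, estimated counts, TPM values and effective lengths of 116248 transcripts, not normalized between libraries. No source here names the transcript set. Of the transcripts, 115995 matched GENCODE M21 (GRCm38), and the rest held 0.0341 to 0.0458% of reads and were left out. The 6 columns of a deposited table of scaled gene values were not used.

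Estimated counts were summed per gene and rounded (Python 3.11.15, pandas 2.3.3). KO was compared with WT by the quasi-likelihood test of edgeR 4.0.16 (R 4.3.3), with TMM factors, filterByExpr and Benjamini-Hochberg adjustment over all genes tested. DESeq2 1.42.0 and limma-voom (limma 3.58.1) were alternatives. The fits were first tested on simulated data. Transcript shares were compared by exact permutation (SciPy 1.17.1). Nothing in the labels shows more than 1 library per mouse.

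The genes and lists were chosen with earlier results of these data known. Named were all 10 genes of the set, the 3 genes of smallest p in each list where none was called, and the 5 genes most like Fkbp5. Further genes are marked as chosen after their values were seen. Alternatives were other normalizations, filters and tools, a length offset, leaving out each library, other share minimums and units, and fewer site types.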

Additional observations from a re-analysis of the deposited data

How the results depend on the processing

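The count of genes called by edgeR's quasi-likelihood test, 0 of 15805, was 1 with no filter on low counts, 2 with limma-voom and 436 with the DESeq2 test, and ran from 0 to 362 when each library was left out, the highest without KO 1. Over the 6 lists the count called, 0, was 10 with the DESeq2 test and from 0 to 1 when each library was left out, the 1 being Serpina6 without KO 1. The number of genes of the receptor set with every KO above every WT library, 4, ran from 4 to 8 when each library was left out, the highest without KO 1, and was 3 with the transcript length offset. The set's median log2 fold change, 1.03, ran from 0.46 without KO 3 to 1.42 without KO 1 and stayed positive under every alternative run. The log2 fold change of Nr3c1 turned from 0.07 to -0.0048 without KO 1 and ran up to 0.15 without KO 3. The order of the genes by level in WT held for 10 of 10 with CPM per kb, and 2 of the 10 genes had a site when 7mer-A1 sites were left out. The cause of these changes was not tested. No paired analysis was possible because the labels give no replicate numbers that tie a WT to a KO mouse. A wider promoter window was not run, because no genome sequence was used here. Genes at few reads, Fam107a and Hsd11b1, are limited by depth. With 3 libraries per group, edgeR's p-values weigh the difference between genotypes against the spread within groups, and they cover these 6 mice only.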
